A study of Homo sapiens with 24 samples.

Results

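The subunits of oxidative phosphorylation were followed across 2 human prostate epithelial cell lines before and after C-Raf driven metastasis. Members were taken by gene symbol: the mitochondrial genes of the ND, CO, CYB and ATP families, and the nuclear NDUFA, NDUFB, NDUFC, NDUFS, NDUFV, UQCR and COX4 to COX8 families. Of the 60448 symbols in each table, 167 matched these names. Pseudogenes (85 symbols) and antisense genes (3 symbols) were dropped, which left 79 members, 13 encoded by mitochondrial DNA and 66 by the nucleus. Of the 13, 7 belong to complex I, 1 to complex III, 3 to complex IV and 2 to the ATP synthase. Of the 66, 38 carry complex I names, 9 belong to complex III and 19 to complex IV, where NDUFA4 and its paralog NDUFA4L2 were placed.

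The study asked how a raised dose of wild-type C-Raf drives prostate cancer metastasis. BPH-1 cells are immortalized by SV40 and RWPE-1 cells by HPV18, and both lines were engineered to carry luciferases. The vector control groups held 3 BPH-1 libraries and 1 RWPE-1 library. The C-Raf parental groups, 3 BPH-1 and 4 RWPE-1 libraries, carried a C-Raf lentivirus with a ubiquitin promoter. The C-Raf metastasis-derived groups, 6 BPH-1 and 7 RWPE-1 libraries, came from bone, lymph node, spine or thymus tumors that the parental cells formed in immune-defective NSG mice and that were cultured again before RNA was taken. RWPE-1 cells were grown in keratinocyte serum-free medium, whereas the labels name DMEM with serum and the methods RPMI for BPH-1. The metastasis-derived libraries are named as separate lines. The 2 libraries numbered R075 have a title and a treatment label that exchange bone and thymus, so they are called by title here and their site is not used. LN1A and LN1B of RWPE-1 share a number in their titles, as do the 2 R075 libraries. Whether such libraries came from the same mouse or tumor is not stated, and each was counted as a replicate. Nothing states that the vector control or C-Raf parental libraries of a group came from separate cultures, so the spread between them, which p-values rest on, may be technical.

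Oxidative phosphorylation joins the transfer of electrons from NADH and succinate to oxygen with the pumping of protons across the inner mitochondrial membrane. Complex I, complex III and complex IV pump the protons and the ATP synthase uses their return to make ATP. The mitochondrial genome supplies the membrane-embedded core of these complexes on long transcripts read from both strands and cut at tRNAs, whereas the nucleus supplies the other subunits one gene at a time, so the 2 sets are controlled by different machinery. In bulk RNA, fewer cells with a transcript and less of it in each cell cannot be told apart.

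Some members share letters with each other, and these stretches show where a read cannot name its gene. The reading frames of MT-ATP8 and MT-ATP6 overlap by 46 bases on the heavy strand transcript, at chrM:8527-8572 in GRCh38, and those of MT-ND4L and MT-ND4 by 7 bases at chrM:10760-10766. The first of these is given here in full, from the GENCODE 29 transcripts.
MT-ATP8 and MT-ATP6 overlap: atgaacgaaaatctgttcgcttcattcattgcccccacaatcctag
Nuclear pseudogene copies of the mitochondrial genome share longer stretches with the members. Of the 50-base windows of MT-CO1, 49.43% also occur in the copy MTCO1P12, of those of MT-ND2 43.61% in MTND2P28, of those of MT-ATP6 46.68% in MTATP6P1 and of those of MT-ND1 22.05% in MTND1P23. Counts on the 177 listed copies came to between 0.490% and 1.46% of the counts on the 13 mitochondrial members, and reads from the shared stretches may have been split between a gene and its copy. The library strand was not given in the sources used here, so reads of MT-ND6, the light-strand gene, and of RNA antisense to it cannot be told apart.

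RNA was sequenced in 24 libraries of 9035970 (R071) to 52851374 (R072) expected counts. Levels are CPM, counts per 1000000 protein-coding counts after TMM scaling over the 24 libraries. The BPH-1 metastasis-derived libraries stood apart: R071, R074 and the library titled BONE R075, called shallow here, held 464692, 132371 and 111162 protein-coding counts, and RN7SL1, an RNA without a poly(A) tail, took 93.3%, 96.8% and 97.5% of all their counts. RN7SL1 took 4.60% to 30.3% in the other 3 and at most 0.00932% in any other library. Replication-dependent histone genes, whose mRNAs also lack a poly(A) tail, took 0.164% to 1.42% of protein-coding counts in the 6 libraries and at most 0.0367% elsewhere. The part of these differences in the mitochondrial values below was not tested.

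The share of protein-coding counts on the 13 mitochondrial genes was highest in the BPH-1 metastasis-derived libraries and split the libraries of RWPE-1. In BPH-1 the share was 2.86%, 3.45% and 2.82% in the vector controls and 3.41%, 3.29% and 3.45% in C-Raf parental cells. In the BPH-1 metastasis-derived lines it was 16.2% in R069, 39.5% in R072 and 11.9% in the library titled THYMUS R075. It was 6.55% in R071, 19.7% in R074 and 18.0% in the library titled BONE R075. Each of the 6 lay above every other library. As a share of all counts, RN7SL1 included, it was 11.3%, 15.4% and 9.96% in R069, R072 and THYMUS R075, still above every other library. In R071, R074 and BONE R075 it was 0.337%, 0.0934% and 0.0486%, below the 0.478% to 3.38% of the libraries outside the BPH-1 metastasis-derived group.

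The RWPE-1 vector control gave 1.71% (95% Wilson interval 1.706% to 1.715%, which like the other intervals covers counting error only). RWPE-1 C-Raf parental cells gave 1.97%, 0.622%, 0.581% and 2.08%. The RWPE-1 metastasis-derived lines gave 1.89% (LN1A), 2.19% (LN1B), 2.39% (Spine), 0.490% (Spine2), 1.76% (Bone4), 0.659% (Bone5) and 0.531% (Bone6). No RWPE-1 library fell between 0.659% and 1.71%, and both C-Raf groups held libraries on each side of the gap. The vector control table, which held the vector control, C-Raf parental 1, LN1A, LN1B and Spine, gave 1.71% to 2.39%, and the second RWPE-1 table, with the other 7 libraries, held both levels.

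**Figure D1:**
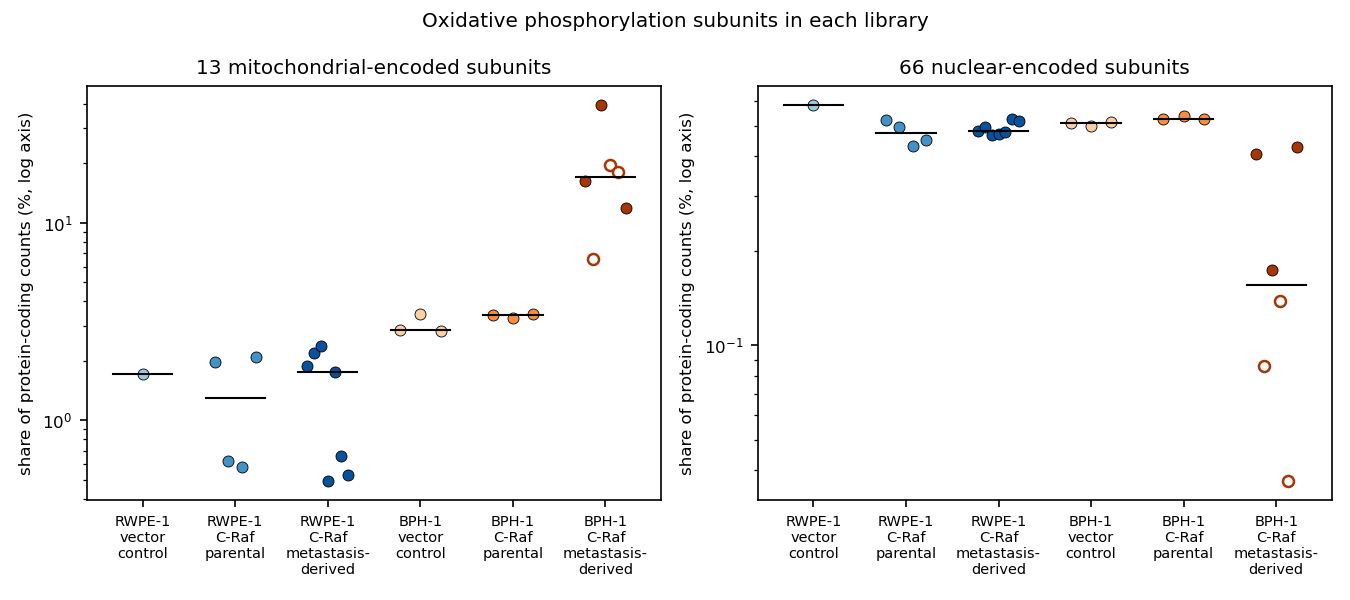
Share of protein-coding counts on the 13 mitochondrial and the 66 nuclear members (percent, log axis) for each of the 24 libraries, by group. Bars are group medians and open symbols are the 3 libraries under 1000000 protein-coding counts. The BPH-1 metastasis-derived libraries sit at 6.55% to 39.5% for the mitochondrial members, above all others, and at 0.0369% to 0.428% for the nuclear members.

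The 66 nuclear members together took a share that was steadier than the mitochondrial one in RWPE-1 but not over the BPH-1 metastasis-derived libraries. It was 0.583% in the RWPE-1 vector control, 0.431% to 0.521% in RWPE-1 C-Raf parental cells and 0.4663% to 0.527% in the RWPE-1 metastasis-derived lines. In BPH-1 it was 0.498% to 0.514% in the vector controls and 0.5265% to 0.536% in C-Raf parental cells, ranges that did not overlap. The BPH-1 metastasis-derived libraries gave 0.407%, 0.174% and 0.428% for R069, R072 and THYMUS R075. The shallow libraries gave 0.0859% (interval 0.0778% to 0.0947%) for R071, 0.138% (0.120% to 0.160%) for R074 and 0.0369% (0.0272% to 0.0500%) for BONE R075.

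A share of the total falls when another part of the total grows. Expressed as a share of protein-coding counts without the 13 mitochondrial genes, the nuclear members took 0.486% in R069 and 0.486% in THYMUS R075, but 0.287% in R072, against 0.545% to 0.554% in BPH-1 C-Raf parental cells. The ratio of mitochondrial to nuclear member counts was 1.03 to 5.12 over the 12 RWPE-1 libraries, 5.47 to 6.92 over the 6 BPH-1 libraries of the other stages and 27.8 to 488 over the BPH-1 metastasis-derived libraries.

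In 4 of the groups mitochondrial members spread more between libraries than nuclear members with a mean of at least 10 CPM, but not over the 6 BPH-1 metastasis-derived libraries. The median coefficient of variation over the 13 mitochondrial members was 65.4% in RWPE-1 C-Raf parental cells and 59.9% in RWPE-1 metastasis-derived lines, against 13.1% and 8.75% for the nuclear members. In BPH-1 it was 12.7% in the vector controls and 4.58% in C-Raf parental cells, against 2.05% and 2.22%. Over the 6 BPH-1 metastasis-derived libraries it was 78.4%, against 79.7% for the nuclear members, and over the 3 deeper ones 96.0% against 27.1%.

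Some nuclear members were hardly transcribed in either line. COX4I2, the lung isoform of subunit 4, COX6A2, a heart and skeletal muscle isoform, and COX7B2, a testis isoform, had 0 counts in all 24 libraries. The testis isoform COX8C had at most 1 count and the muscle isoform COX7A1 at most 11 counts in any library. NDUFA4L2, the hypoxia-inducible paralog of NDUFA4, had 0 to 91 counts. UQCRHL, a copy of UQCRH that shares 7.649% of its 50-base windows with it, had 135 to 345 counts in RWPE-1. COX6B2, another testis isoform, had 0 to 24.5 counts in RWPE-1 but 73.5 to 175 in the BPH-1 libraries outside the 3 shallow ones. NDUFA7, an accessory subunit of complex I, had 30.8 counts in BPH-1 C-Raf parental 3, 3.16 in R069 and 0 elsewhere, and was not tested. A symbol NDUFA7.2 had 567 to 1111 counts in the 18 libraries outside the BPH-1 metastasis-derived group, but it is not in the annotation used to select genes and was not tested either. After the filter on low counts, all 13 mitochondrial and 58 or 59 nuclear members remained in each comparison.

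Per kilobase of transcript, MT-CO1, the catalytic subunit of complex IV, was the highest member in both C-Raf parental groups, at a level of 5256 CPM per kb (range 5168 to 5305) in BPH-1 and 2158 (965 to 3444) in RWPE-1. In BPH-1 C-Raf parental cells it was followed by MT-ND4 (4055, range 3838 to 4260) and MT-ATP6 (3858, range 3688 to 3970), which overlapped each other but not MT-CO1. In RWPE-1 C-Raf parental cells it was followed by MT-CO2 (2107) and MT-CO3 (1586), and the ranges of all 3 overlapped. The highest nuclear members were COX4I1 in BPH-1, at 434 CPM per kb, and COX7C in RWPE-1, at 302 CPM per kb. Both encode nuclear subunits around the mitochondrial core of complex IV.

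The make-up of the mitochondrial counts differed between the cell lines. MT-ND4, a proton-pumping subunit of complex I, made up 9.25% to 12.1% of the mitochondrial counts over the 12 RWPE-1 libraries and 18.3% to 20.3% over the 6 BPH-1 libraries from before metastasis. MT-CYB, the heme-bearing core of complex III, made up 4.90% to 6.18% and 7.34% to 8.37%. MT-CO2, which takes electrons from cytochrome c, went the other way, with 9.95% to 12.5% in RWPE-1 and 6.002% to 6.41% in BPH-1. MT-ND3 made up 1.61% to 2.80% and 0.821% to 0.897%. None of these 4 ranges overlapped between the cell lines. The counts of the 2 mitochondrial rRNAs came to 0.228 to 0.428 per mitochondrial member count in RWPE-1 and to 0.0349 to 0.0732 in the 6 BPH-1 libraries.

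In the 6 BPH-1 metastasis-derived libraries the make-up changed again. MT-CO1 made up 10.6% to 21.0% of the mitochondrial counts, against 26.0% to 27.6% in the other 6 BPH-1 libraries. MT-ND5, the distal proton pump of complex I, made up 10.5% to 14.2% against 5.91% to 6.39%, and MT-ND6 1.78% to 2.99% against 1.30% to 1.51%. The ranges did not overlap for these 3 genes, and they did not overlap between the 3 deeper libraries and the others either. These genes were not alone. MT-ND1, MT-ND2, MT-ND3, MT-CO2 and MT-CO3 took larger shares without overlap, and MT-ND4 and MT-ND4L smaller ones. MT-ND4 made up 12.8% to 15.6% against 18.3% to 20.3%. Only the ranges of MT-CYB, MT-ATP6 and MT-ATP8 overlapped. The rRNAs came to 0.00488 to 0.0212 per mitochondrial member count. These shares are descriptions of the libraries and were not tested.

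**Figure D2:**
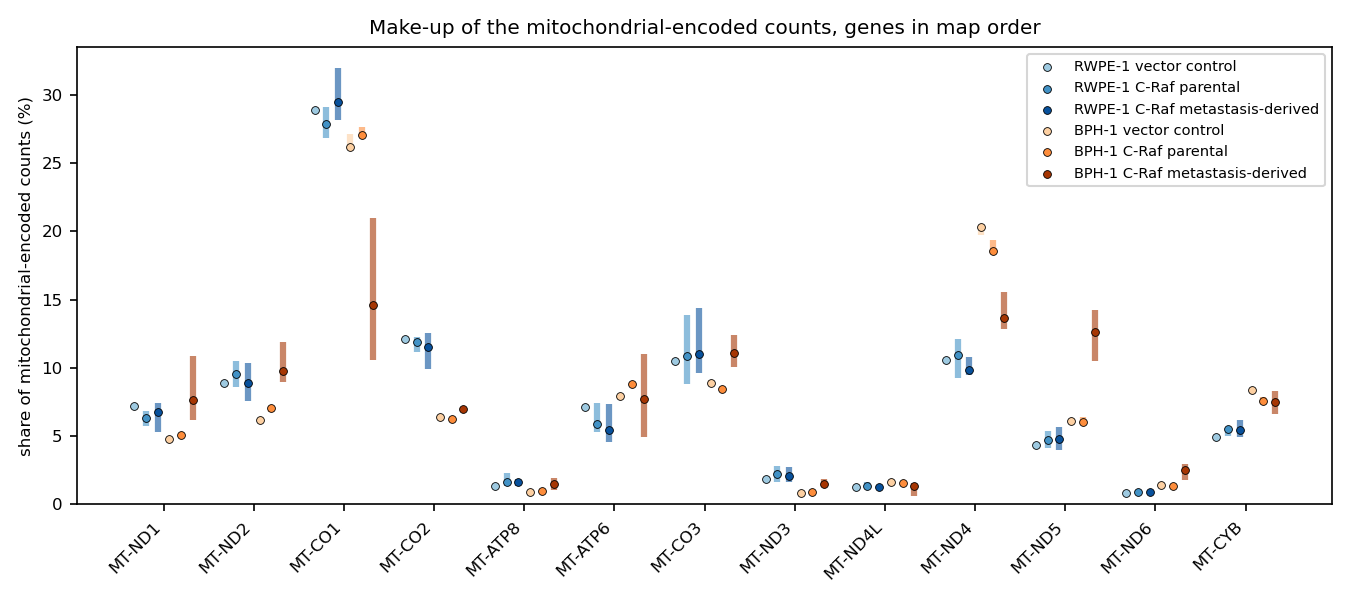
Share of the mitochondrial counts (percent) on each of the 13 mitochondrial members, in the order of the mitochondrial map, for each of the 6 groups. Bars run from the lowest to the highest library and points are medians. MT-ND4 lies at 18.3% to 20.3% in BPH-1 before metastasis and at 9.25% to 12.1% in RWPE-1, and MT-CO1 is lowest in the BPH-1 metastasis-derived libraries.

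The comparison of BPH-1 C-Raf parental cells with the vector control asks what C-Raf does to these genes before metastasis. Small rises were found in most members. MT-CO1 stood at 6279, 7501 and 6323 CPM in the vector controls and at 8180, 7970 and 8166 CPM in C-Raf parental cells. MT-ND2, a membrane subunit of complex I, stood at 1472, 1791 and 1463 and at 2058, 2045 and 2168 CPM. MT-ATP6, the proton channel subunit of the ATP synthase, stood at 1924, 2284 and 1802 and at 2667, 2511 and 2703 CPM. For these 3 genes every C-Raf parental library lay above every vector control library, and vector control 2 was the highest of its group.

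By the quasi-likelihood test of edgeR, adjusted by Benjamini-Hochberg over 13220 genes, 10 of the 13 mitochondrial members rose and 0 fell, where 30.4% of all genes tested rose and 29.4% fell (59.8% in either direction). The median difference of the 13 was 0.23 on the log2 scale and that of all genes tested was 0.00. The differences were 0.39 (SE 0.046, adjusted p = 3.9e-08) for MT-ND2, 0.37 (SE 0.048) for MT-ATP6, 0.38 (SE 0.066) for MT-ATP8, an ATP synthase subunit whose frame overlaps that of MT-ATP6, and 0.25 (SE 0.041) for MT-CO1. MT-ND4 (0.11, adjusted p = 0.063), MT-ND6 (0.13, adjusted p = 0.075) and MT-CYB (0.07, adjusted p = 0.20) did not pass. The groups did not overlap for 6 of the 13, against 63.8% of all genes tested. No mitochondrial member differed by 0.5 or more on the log2 scale, a size that 16.5% of all genes reached with a passing test. DESeq2 passed 5 of the 13, and 6786 of the 13220 genes.

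Of the 58 nuclear members tested, 37 rose and 1 fell, with a median difference of 0.10, and the groups did not overlap for 44 of them. That is 65.5% called, against 59.8% of all genes tested (30.4% rose and 29.4% fell). The groups did not overlap for 63.8% of all genes tested. In complex I 21 of 35 tested members rose, in complex III 6 of 9 and in complex IV 10 of 14. NDUFA4, once assigned to complex I and now to complex IV, stood at 56.8, 56.4 and 56.9 CPM in the vector controls and at 73.6, 73.9 and 71.1 CPM in C-Raf parental cells. It rose by 0.34 (SE 0.033, adjusted p = 6.1e-10), the most of the nuclear members. COX4I1 stood at 305, 290 and 305 and at 345, 349 and 341 CPM and rose by 0.18 (SE 0.027). The 2 groups of each gene were far apart beside the spread within them.

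NDUFA5, an accessory subunit of the matrix arm, rose by 0.32 (SE 0.040), from 41.8, 42.0 and 43.5 to 51.1, 56.3 and 53.9 CPM. NDUFB9, an accessory subunit of the membrane arm, rose by 0.29 (SE 0.034), from 81.9, 73.9 and 78.8 to 97.8, 98.2 and 96.2 CPM. COX6C, a small subunit of complex IV, rose by 0.28 (SE 0.041), from 41.9, 39.7 and 42.9 to 48.5, 53.6 and 50.8 CPM. No library of the vector controls reached the C-Raf parental range for any of the 3. NDUFA4L2 was the nuclear member that fell (-0.85, SE 0.35, adjusted p = 0.036), on 25, 22 and 14 counts against 8, 12 and 9. Of the other members, 20 did not pass, among them COX8A (0.02) and NDUFS8 (-0.04). Scaling by library size alone left 23 nuclear members higher and 3 lower and 8 mitochondrial members higher. It also moved the median of all genes by -0.06 and took the split of higher and lower calls from 4016 of 7907 to 2946 of 7878.

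Genes that work beside the subunits moved in the same direction more often than not. The counts of each list are to be read against all genes tested, of which 30.4% rose and 29.4% fell (59.8% in either direction). All 4 subunits of complex II, which passes electrons from succinate, rose, among them SDHB by 0.44 (SE 0.029). CYCS, cytochrome c, rose by 0.34 (SE 0.029), as did the other 2 genes of the list of remaining chain proteins. Of 16 nuclear ATP synthase genes 9 rose and 0 fell, of 41 assembly factors 17 rose and 2 fell, and of 77 mitochondrial ribosomal proteins 56 rose and 1 fell. Among the 17 tested genes for transcription and handling of mitochondrial RNA, 11 rose and 1 fell, led by TFB1M (0.74, SE 0.048), which methylates mitochondrial rRNA, and TFB2M (0.53, SE 0.044), which opens the promoters for the mitochondrial polymerase. Of 7 tested regulators of mitochondrial biogenesis 3 rose, including PPARGC1B (0.60, SE 0.047) and the nuclear receptor ESRRA (0.57, SE 0.034), and YY1 fell (-0.08, SE 0.028). In the TCA cycle 9 of 14 genes rose and IDH2 fell (-0.55, SE 0.037). The medians of these lists ran from 0.08 to 0.34 against 0.00 for all genes tested.

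**Figure D3:**
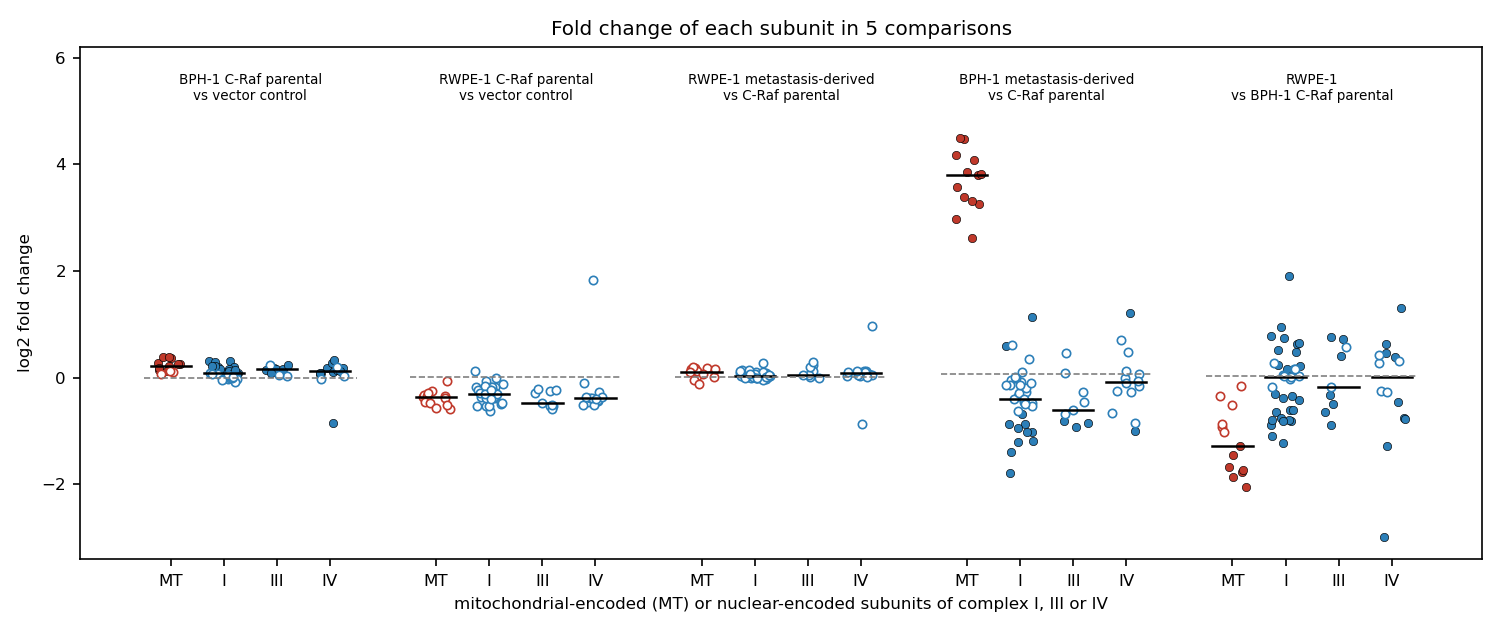
Log2 fold change of each member in the 5 comparisons of groups, mitochondrial and nuclear members apart. Filled points passed the test, open points did not, black bars are the medians of the members and grey dashed lines the medians of all genes tested. COX6B2 and NDUFC2-KCTD14 in RWPE-1 C-Raf parental cells against vector control are left out because the vector control had 0 counts. The mitochondrial median is 3.81 in the BPH-1 metastasis-derived lines and -1.28 in RWPE-1 against BPH-1.

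The comparison of BPH-1 metastasis-derived lines with their parental cells asks what differs after passage through the mouse, and rests on R069, R072 and THYMUS R075, each with over 1000000 protein-coding counts. Mitochondrial members were higher and a part of the nuclear members lower. MT-CO1 stood at 18672, 98054 and 24464 CPM in R069, R072 and THYMUS R075, against 7970 to 8180 CPM in C-Raf parental cells. MT-ND6 stood at 4076, 18807 and 2567 CPM against 390 to 424 CPM, and MT-CYB at 11551, 47702 and 7728 CPM against 2186 to 2378 CPM. No metastasis-derived library reached down to the C-Raf parental range, and R072 was the highest for each gene by a wide margin. The shallow libraries, which were not in this test, gave 24178 (R071), 28405 (R074) and 42608 CPM (BONE R075) for MT-CO1.

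All 13 mitochondrial members tested were called higher, where 20.9% of the 13443 genes tested were higher and 16.8% lower (37.7% in either direction). The median difference was 3.81 against 0.07 for all genes. It was smallest for MT-CO1, at 2.62 (SE 0.72, adjusted p = 0.031, 6.17-fold), and largest for MT-ND6 at 4.49 (SE 0.86, adjusted p = 0.0098, 22.5-fold) and MT-ND5 at 4.47 (SE 0.88). The difference between MT-CO1 and MT-ND6 was not itself tested. The groups did not overlap for any of the 13, against 59.8% of all genes tested. The calls depended on which libraries were in the fit. Without C-Raf parental 1, 2 or 3 the fit called 1, 2 and 2 of the 13. With all 6 metastasis-derived libraries it called 9, and MT-CO1 (2.11, adjusted p = 0.12) was not among them. Without R072 it called all 13, with a median of 2.65. Calls over all genes are not given for these fits, so a change in the members cannot be told from a general one.

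Of the 58 nuclear members tested, 14 were lower and 3 higher, with a median difference of -0.28, and 41 did not pass. That is 29.3% called, below the 37.7% of all genes tested. The groups did not overlap for 33 of the 58, where 59.8% of all genes tested did not overlap. NDUFA8, an accessory subunit of complex I in the intermembrane space, stood at 16.2 (R069), 12.2 (R072) and 21.1 CPM (THYMUS R075) against 61.8, 58.9 and 58.8 CPM in C-Raf parental cells. NDUFS8, which carries iron-sulfur clusters of complex I, stood at 37.0, 27.6 and 43.0 CPM against 101, 98.4 and 95.1 CPM. NDUFA11, an accessory membrane subunit, stood at 34.2, 29.5 and 31.2 CPM against 76.1, 78.2 and 74.1 CPM. Every metastasis-derived library lay below every C-Raf parental library for these 3 genes. The differences were -1.80 (SE 0.22, adjusted p = 0.0029), -1.39 (SE 0.19, adjusted p = 0.0039) and -1.199 (SE 0.14, adjusted p = 0.0028).

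NDUFS7, another iron-sulfur subunit, fell by 1.19 on the log2 scale (SE 0.22) and NDUFB7, an accessory subunit of the intermembrane space, fell by 1.03 (SE 0.20). Among the other members that fell were NDUFB10, NDUFS6, NDUFC1 and NDUFB11 of complex I, UQCRC2, UQCR10 and UQCRC1 of complex III, and COX5A of complex IV. NDUFB1, a small membrane subunit of complex I, stood at 37.0, 46.0 and 37.8 CPM in R069, R072 and THYMUS R075 against 19.1, 19.8 and 18.7 CPM, and was higher by 1.14 (SE 0.17, adjusted p = 0.0047). NDUFA1, also a small membrane subunit, was higher by 0.59 (SE 0.16), and the isoform COX6B2 was higher by 1.204 (SE 0.34) at a mean of 6.45 CPM. Members of one complex thus moved in both directions.

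NDUFA4 and COX4I1 did not pass in this comparison. NDUFA4 stood at 59.2, 31.5 and 84.6 CPM in R069, R072 and THYMUS R075, on both sides of the C-Raf parental range of 71.1 to 73.9 CPM, a difference of -0.26 (SE 0.33, adjusted p = 0.56). COX4I1 stood at 356, 190 and 438 CPM against 341 to 349 CPM, a difference of -0.01 (SE 0.31, adjusted p = 0.97). R072 was the lowest library for both. NDUFA4 was at 0 counts in R074 and BONE R075, which allows up to 23.95 and 60.3 CPM, and at 78.0 CPM in R071. Without R072, 8 nuclear members were higher and 26 lower. Without C-Raf parental 1, 2 or 3 the fit called 7, 7 and 8, and with all 6 metastasis-derived libraries 2, both lower. For these fits too, a change in the members cannot be told from one over all genes. Scaling by library size alone left 0 higher, so that NDUFB1, NDUFA1 and COX6B2 lost their calls, and 10 lower, and moved the median of all genes from 0.07 to -0.30 and the split of calls from 2816 higher of 5072 to 1623 of 4026.

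The lists beside the subunits had more genes called lower than called higher. Among all genes tested, 20.9% were higher and 16.8% lower (37.7% in either direction). Of 77 mitochondrial ribosomal proteins 36 were lower and 0 higher (median -0.81), of 16 ATP synthase genes 8 and 0 (median -0.74), of 14 TCA cycle genes 5 and 0, and of 41 assembly factors 14 and 3. CYC1, the cytochrome of complex III that passes electrons to cytochrome c, fell by 1.59 on the log2 scale (SE 0.17), ATP5G1, a subunit of the rotor ring, by 1.86 (SE 0.28) and ESRRA by 1.77 (SE 0.14). ESRRA was the 1 regulator of mitochondrial biogenesis that was lower. The other 6 of the 7 tested did not pass, and the median of that list was 0.26. TFB1M fell by 1.29 (SE 0.16) and POLRMT, the mitochondrial RNA polymerase, by 1.18 (SE 0.21). Of the 17 tested genes for mitochondrial RNA, 3 were lower, 0 were higher and 14 did not pass (median -0.18). The assembly factor PET100 was higher by 1.66 (SE 0.18).

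Some values of other cell types, and those of RNA without a poly(A) tail, moved with this comparison. The 6 fibroblast markers summed to 48.3 to 271 CPM in the 6 metastasis-derived libraries and to 11.3 to 11.5 CPM in C-Raf parental cells, where COL3A1 and DCN were at 0. COL1A1 alone gave 39.9 to 234 against 10.5 to 10.7 CPM. The medians of COL1A2 (4.19 against 0.0687 CPM) and COL3A1 (0.269 against 0 CPM) were higher, and that of PDGFRB (0.390 against 0.780 CPM) was lower. DCN and LUM had a median of 0 in the metastasis-derived libraries. The sum of 6 blood cell markers ran from 6.77 to 301 CPM against 26.6 to 29.5 CPM, with PTPRC at most 0.0354 CPM, and that of 4 muscle markers from 3.74 to 55.8 against 2.65 to 3.43 CPM. All marker ranges given here include the shallow libraries, where 1 count is worth 4.10 (R071), 7.98 (R074) and 20.1 CPM (BONE R075). Extreme values there can rest on a few counts. The 7 epithelial markers summed to 1145 to 6475 against 5870 to 6016 CPM, of which KRT5 made up the largest part. KRT8 (0 to 181 against 909 to 940 CPM), KRT18 (0 to 226 against 836 to 854 CPM), KRT19 (100 to 583 against 738 to 764 CPM) and EPCAM (0 to 90.2 against 196 to 200 CPM) were lower in every metastasis-derived library. KRT5 (904 to 4870 against 2678.5 to 2742 CPM) and CDH1 (60.3 to 466 against 319 to 324 CPM) were not lower in every library. The same held for TP63 (15.97 to 336 against 187 to 193 CPM). The ranges of KRT5, CDH1 and TP63 reached both below and above those of C-Raf parental cells. The part of all these markers in the mitochondrial and nuclear differences was not tested. All metastasis-derived BPH-1 libraries came in a table of their own, so the stage and the table cannot be told apart.

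**Figure D4:**
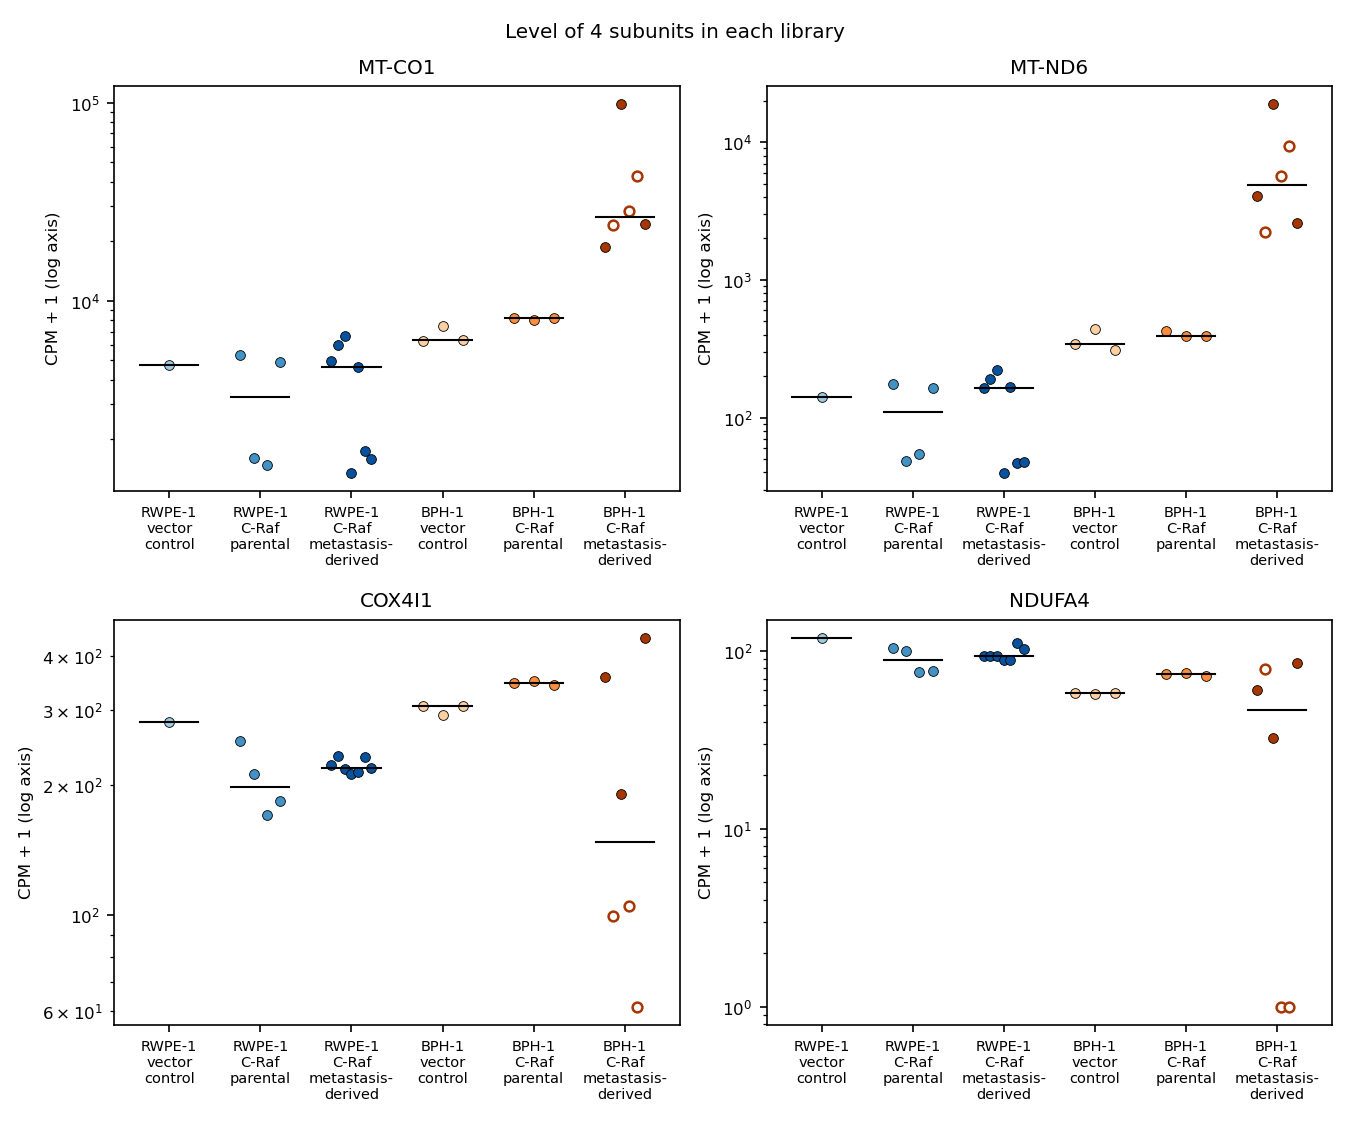
Level of MT-CO1, MT-ND6, COX4I1 and NDUFA4 (CPM + 1, log axis) in each of the 24 libraries by group. Bars are group medians and open symbols the 3 libraries under 1000000 protein-coding counts. MT-CO1 and MT-ND6 are highest in the BPH-1 metastasis-derived libraries and lie at separated levels within the RWPE-1 C-Raf groups, whereas COX4I1 and NDUFA4 spread less outside the BPH-1 metastasis-derived libraries.

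In RWPE-1 no member passed the test of metastasis-derived lines against their parental cells. MT-CO1 stood at 5311, 1613, 1488 and 4898 CPM in C-Raf parental cells. In the 7 metastasis-derived lines its lowest value was 1354 CPM (Spine2), its median 4645 CPM (Bone4) and its highest 6644 CPM (Spine). MT-ND6 stood at 174, 47.7, 53.7 and 164 CPM and ran from 38.7 to 220 CPM. Low and high libraries occurred in both groups, which overlapped.

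Of the 13177 genes tested, 13 passed, which is 0.0987% (0.0759% higher and 0.0228% lower). Of the 13 mitochondrial members 0 passed by edgeR's quasi-likelihood test, 0 had an unadjusted p under 0.05 and 0 passed by DESeq2. The groups overlapped for all 13, where 1.65% of all genes tested did not overlap. Their differences ran from -0.11 (MT-ATP8) to 0.21 (MT-CO1, SE 0.53, adjusted p = 0.95), with a median of 0.11 against 0.01 for all genes. The standard errors of 0.40 to 0.65 leave room for changes of that size in either direction. With the table as a term the median was -0.22 and within the second table -0.35, again with 0 called.

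Of the 58 nuclear members tested 0 passed, 2 had an unadjusted p under 0.05 and 0 passed by DESeq2, with a median difference of 0.05. The 2 were UQCRH, the hinge protein of complex III (0.19, SE 0.085), and NDUFB11, a membrane subunit of complex I (0.15, SE 0.069). NDUFA4 stood at 103, 99.4, 75.5 and 76.6 CPM in C-Raf parental cells and at a lowest of 87.5 (Bone4), a median of 93.2 (LN1A) and a highest of 111 CPM (Bone5) in the metastasis-derived lines. COX4I1 stood at 252, 212, 170 and 183 CPM and ran from 212 to 233 CPM. For both genes all metastasis-derived lines lay within the C-Raf parental range or, for Bone5 and NDUFA4, just above it. Of the genes on the 8 accompanying lists 0 passed in RWPE-1 metastasis-derived lines by edgeR's test, 4 had an unadjusted p under 0.05 and 1 passed by DESeq2. Over all 13177 genes tested, 1036 had an unadjusted p under 0.05 and 168 passed by DESeq2.

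The difference of the metastasis-derived effect between the cell lines was tested as an interaction over 14258 genes, of which 21% were called higher in RWPE-1 relative to BPH-1 and 23.5% lower (44.5% in either direction). All 13 mitochondrial members were called lower, with a median of -3.55, from MT-CO1 at -2.35 (SE 0.90, adjusted p = 0.043) to MT-ND6 at -4.24 (SE 1.01, adjusted p = 0.0029). Of the 59 nuclear members tested, 23 were called higher and 3 lower, with a median of 0.40 against -0.05 for all genes. That is 44.1% called, near the 44.5% of all genes tested. The largest were NDUFA8 (1.83, SE 0.20), NDUFS8 (1.48, SE 0.18), NDUFA11 (1.28, SE 0.15), NDUFS7 (1.23, SE 0.20) and COX5A (1.16, SE 0.28), and the lower ones were NDUFB1 (-0.98, SE 0.15), NDUFA1 (-0.56, SE 0.16) and the read-through NDUFC2-KCTD14. The last rests on 0 counts in all RWPE-1 metastasis-derived lines and at most 37.0 in any library, so its fold change is not given. This test uses the same libraries as the comparisons within each line, so it is not separate evidence for them. With all 6 BPH-1 metastasis-derived libraries 12 mitochondrial and 10 nuclear members were called, and without R072 9 of the 13 mitochondrial members were called. The calls over all genes in these fits are not given.

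RWPE-1 C-Raf parental cells could be set beside 1 vector control library, so the spread was taken from all 12 RWPE-1 libraries and the lone library was assumed to vary like them. No member passed. The vector control gave 4753 CPM for MT-CO1, within the C-Raf parental values of 1488 to 5311 CPM. It gave 117 CPM for NDUFA4 and 280 CPM for COX4I1, in both cases above all 4 C-Raf parental libraries. Of the 13871 genes tested, 0.397% passed (0.281% higher and 0.115% lower).

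Among the mitochondrial members 0 of 13 passed by edgeR's quasi-likelihood test, 0 had an unadjusted p under 0.05 and 0 passed by DESeq2. All 13 differences were negative, with a median of -0.36 against 0.00 for all genes, and MT-CO1 differed by -0.50 (SE 0.90, adjusted p = 0.78). Among the 59 nuclear members tested the differences of 55 were negative, and the median of the 59 was -0.34. NDUFA4 differed by -0.39 (SE 0.17, adjusted p = 0.26), COX4I1 by -0.45 (SE 0.16, adjusted p = 0.20) and NDUFS8 by -0.53 (SE 0.13, adjusted p = 0.10). COX6B2 had 0 counts in the vector control and 2, 10, 18 and 24.5 counts in C-Raf parental cells, and no fold is given. Without C-Raf parental 1, 18 nuclear members were lower and 1446 of all genes passed. Against C-Raf parental 1 alone, from the vector control table, the medians were 0.23 for the mitochondrial and -0.13 for the nuclear members. This comparison and the one of metastasis-derived lines share the C-Raf parental libraries. On the accompanying lists the median differences ran from -0.50 (ATP synthase) to -0.06 (biogenesis regulators), against 0.00 for all genes.

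RWPE-1 and BPH-1 were compared at the C-Raf parental stage, 4 libraries against 3. Mitochondrial members were lower in RWPE-1 or did not pass, whereas nuclear members were called in both directions at about the share of all genes. MT-ND4 stood at 2068, 537, 557 and 2214 CPM in RWPE-1 and at 5870, 5289 and 5606 CPM in BPH-1. MT-CYB stood at 1061, 290, 277 and 1014 CPM and at 2378, 2186 and 2215 CPM. MT-CO2 stood at 2324, 686, 569 and 2185 CPM and at 1903, 1731 and 1906 CPM. For MT-ND4 and MT-CYB every RWPE-1 library lay below every BPH-1 library, but for MT-CO2 C-Raf parental 1 and 4 of RWPE-1 lay above all BPH-1 libraries.

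Of the 13 mitochondrial members 0 were called higher and 7 lower in RWPE-1, where 38% of the 13520 genes tested were higher and 36% lower (74% in either direction). The median difference was -1.28 against 0.02 for all genes. The 7 were MT-ND4 (-2.05, SE 0.55, adjusted p = 0.010), MT-ND6 (-1.87, SE 0.48), MT-CYB (-1.77, SE 0.51), MT-ATP6 (-1.73, SE 0.58), MT-ND5 (-1.68, SE 0.49), MT-ND4L (-1.45, SE 0.51) and MT-CO1 (-1.28, SE 0.48, adjusted p = 0.041). MT-CO3 (-1.01, adjusted p = 0.051), MT-ND1 (-0.92), MT-ND2 (-0.86), MT-ATP8 (-0.50), MT-CO2 (-0.35, adjusted p = 0.55) and MT-ND3 (-0.15) did not pass. The groups did not overlap for 10 of the 13, against 76.1% of all genes tested. Without BPH-1 C-Raf parental 1, 2 or 3 the fit called 4 each time, and without any one of the RWPE-1 libraries 5 to 9. How the calls over all genes changed in these fits is not given.

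Of the 58 nuclear members tested 18 were higher and 24 lower in RWPE-1, with a median of -0.01. That is 72.4% called, near the 74% of all genes tested. The groups did not overlap for 46 of the 58, where 76.1% of all genes tested did not overlap. NDUFS4, an accessory subunit of the matrix arm of complex I, stood at 78.1, 78.7, 68.6 and 72.1 CPM in RWPE-1 and at 20.2, 19.7 and 19.8 CPM in BPH-1. COX7C, a small subunit of complex IV, stood at 251, 220, 162 and 171 CPM and at 79.7, 82.8 and 80.2 CPM. The differences were 1.91 (SE 0.063, adjusted p = 4.9e-07) and 1.31 (SE 0.15, adjusted p = 0.00013). NDUFC1 (0.94, SE 0.12), NDUFS1, the largest iron-sulfur subunit of complex I (0.78, SE 0.073), and UQCRH (0.77, SE 0.098) were also higher. The RWPE-1 and BPH-1 values of these 5 genes did not overlap.

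COX6A1, the isoform of subunit 6A found in most tissues, stood at 109, 106, 93.6 and 85.3 CPM in RWPE-1 and at 243, 239 and 233 CPM in BPH-1. It was lower by the largest amount among the nuclear members with at least 10 CPM, at -1.28 (SE 0.086, adjusted p = 7.9e-06). NDUFB11 (-1.23, SE 0.078), NDUFV1, which binds NADH and FMN at the entry of complex I (-1.10, SE 0.10), NDUFA6 (-0.89, SE 0.12) and UQCR10 (-0.88, SE 0.099) followed. COX4I1 was lower at -0.75 (SE 0.13, adjusted p = 0.0010) and NDUFA4, at 0.28 (SE 0.12, adjusted p = 0.060), did not pass. COX6B2 was lower at -2.99 (SE 0.55), from a mean of 2.93 CPM in BPH-1 to 0.358 CPM in RWPE-1. Cell line, medium and table cannot be told apart here.

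The sequences before 3 of these genes are given with the motifs of factors that are known for nuclear respiratory genes. They are NDUFS4 and COX6A1, the nuclear members at either end of the cell line comparison among those with at least 10 CPM, and COX4I1. Each is 300 bases from RefSeq in GRCh38.p14 around the start of the gene, on the plus strand, and capitals mark the motif matches. NDUFS4 lies at chr5:53560389-53560688, COX6A1 at chr12:120437863-120438162 and COX4I1 at chr16:85799445-85799744.
NDUFS4: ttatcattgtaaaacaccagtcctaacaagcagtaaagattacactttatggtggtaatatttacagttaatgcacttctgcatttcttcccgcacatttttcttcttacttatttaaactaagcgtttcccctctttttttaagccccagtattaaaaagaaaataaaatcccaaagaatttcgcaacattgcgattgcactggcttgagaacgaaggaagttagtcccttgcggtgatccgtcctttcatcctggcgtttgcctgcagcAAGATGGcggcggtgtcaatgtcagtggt
COX6A1: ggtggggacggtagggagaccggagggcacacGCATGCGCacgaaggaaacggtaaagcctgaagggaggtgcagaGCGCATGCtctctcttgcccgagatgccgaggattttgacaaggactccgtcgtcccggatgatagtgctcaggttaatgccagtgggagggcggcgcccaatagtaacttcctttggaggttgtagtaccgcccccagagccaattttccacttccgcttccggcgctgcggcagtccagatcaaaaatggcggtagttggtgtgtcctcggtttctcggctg
COX4I1: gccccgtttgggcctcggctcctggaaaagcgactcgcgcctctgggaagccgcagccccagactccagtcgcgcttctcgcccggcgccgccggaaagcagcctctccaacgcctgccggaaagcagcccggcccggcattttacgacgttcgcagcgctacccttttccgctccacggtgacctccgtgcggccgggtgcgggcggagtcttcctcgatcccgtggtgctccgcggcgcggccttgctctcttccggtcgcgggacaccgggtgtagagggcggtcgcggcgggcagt
The NDUFS4 window holds 1 YY1-type motif AAGATGG, the COX6A1 window holds the NRF1-type motif GCATGCGC once on each strand, and the COX4I1 window holds none of the 3 motifs searched.

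Windows were found for 53 of the 66 nuclear members (80.3%), NDUFA4 not among them. Searching both strands, GCATGCGC occurred in 13.21% of the 53 and in 3.274% of all 27305 windows of that length. The ETS-type motif CCGGAAGT occurred in 13.21% and 4.435%, and AAGATGG in 18.87% and 6.061%. At least 1 of the 3 occurred in 21 of the 53 windows (39.62%) and in 12.74% of all, and a window could count for more than 1 motif. A match of letters is a description and not a binding site.

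**Figure D5:**
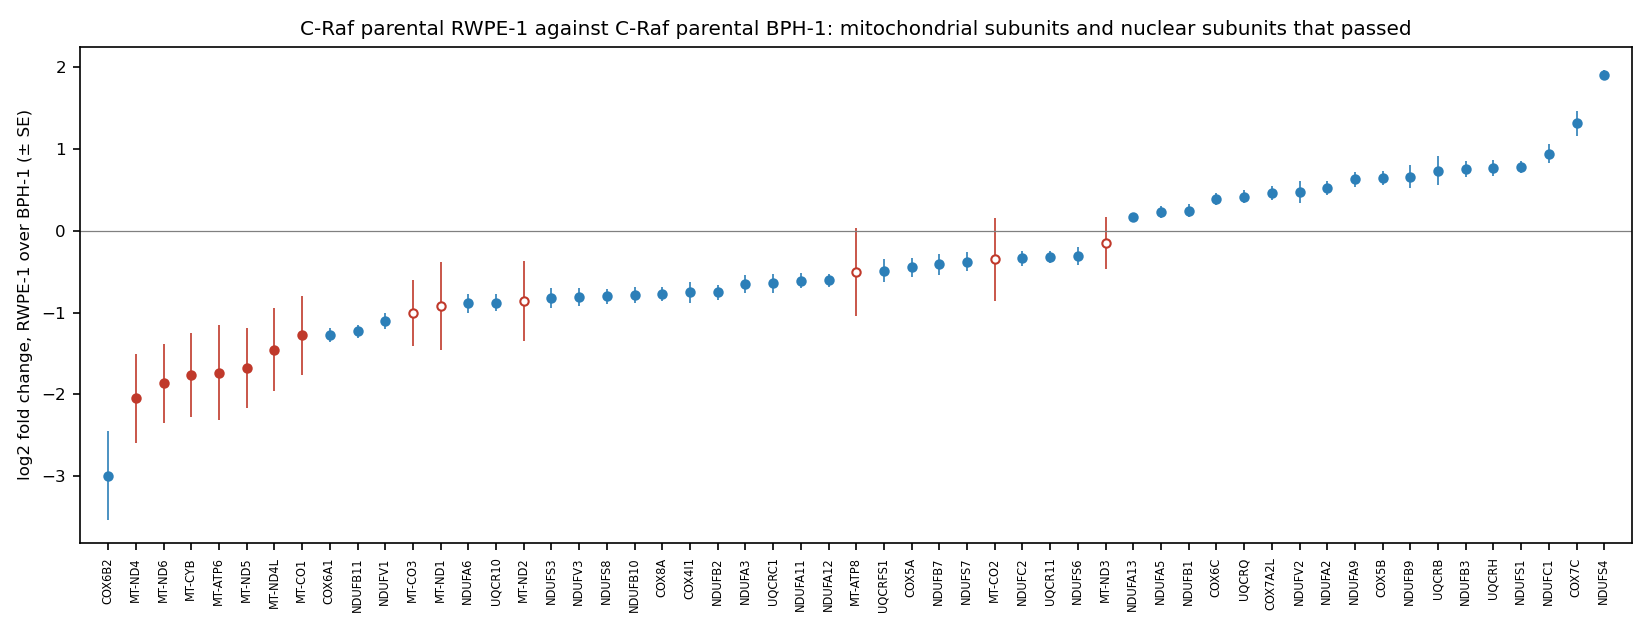
Log2 fold change of RWPE-1 over BPH-1 C-Raf parental cells with its standard error for the 13 mitochondrial members and the 42 nuclear members that passed, ordered by value. Red marks mitochondrial and blue nuclear members, filled points passed the test and open points did not. NDUFS4 (1.91) stands at the upper end, and the 13 mitochondrial members lie between -2.05 and -0.15.

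On the accompanying lists 45 genes were higher and 74 lower, to be read against the 38% higher and 36% lower of all genes tested. Of 77 mitochondrial ribosomal proteins 19 were higher and 35 lower in RWPE-1, of 41 assembly factors 8 and 16, of 14 TCA cycle genes 4 and 8, and of 16 ATP synthase genes 6 and 4. In complex II, SDHA (-0.86, SE 0.066) and SDHD (-0.68, SE 0.11) were lower and SDHC (0.32, SE 0.058) was higher. Among 17 tested genes for mitochondrial RNA 4 were higher and 6 lower. MTPAP, which adds poly(A) to mitochondrial mRNAs, was higher by 1.62 (SE 0.15) and LRPPRC, which stabilizes them, by 1.29 (SE 0.15), whereas TFB1M was lower at -1.91 (SE 0.17) and POLRMT at -1.07 (SE 0.095). The assembly factor NDUFAF2 was higher by 1.78 (SE 0.12). Of the 7 tested regulators 3 were higher and 2 lower, with ESRRA at -0.93 (SE 0.15) and GABPA at 0.68 (SE 0.075).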

How the data were processed

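The authors deposited 4 tables of expected counts per gene symbol, made with RSEM in their TOIL pipeline and not normalized, batch-adjusted or filtered. The submitters' processing notes name cutadapt, FastQC, STAR, RSEM and hg38, and the annotation release is not given in the sources used here. Library kits were for mRNA per the labels. Depth is in the report, and precision at low levels is set by the protein-coding counts, of which the 3 shallow libraries have 111162 to 464692. All 24 columns matched a labelled sample.

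Of the symbols, 36628 were found in GENCODE 29 by name and 850 under an older name, and the expected counts of the 19202 protein-coding ones were rounded. Genes passed edgeR's filterByExpr by group, and libraries were scaled by TMM. Each comparison was a quasi-likelihood fit of edgeR 4.0.16 in R 4.3.3 to the libraries it names, with Benjamini-Hochberg adjustment over all genes tested and a call below 0.05. Standard errors were derived from the F statistic, tests were two-sided, and the steps were tested on simulated data. Alternatives were DESeq2 1.42.0, RLE, library size or nuclear-gene scaling, no filter, all symbols, a minimum difference of 0.5, a replicate block, a table term, and each library left out. For the interaction, leaving out libraries and the minimum difference were added after seeing the data.

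Members and gene lists were chosen with earlier results of these data known, and the lists were written by hand. Genes named with values are the 13 mitochondrial members, NDUFA4, COX4I1, isoforms and copies of subunits, the 5 highest and 5 lowest called nuclear members with a mean of at least 10 CPM in each comparison, and up to 2 called genes at each end of a list with at least 1 CPM. Others were named after their values were seen. Replicates differed by more than sampling noise, so each was counted. Some items are not reported here.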

Additional observations from a re-analysis of the deposited data

Results flagged for a closer look

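Of 159 sets of 4 to 10 libraries checked for one library far from the rest, 7 held such a library, and chance alone gives about 1 in 20 sets. The BPH-1 line R072 stood at 98054 CPM for MT-CO1, above the other 5 metastasis-derived libraries. In the shallow library R071, NDUFS1 stood at 283 CPM and MT-ND4L took 0.608% of the mitochondrial counts, and in the shallow library R074, NDUFB7 stood at 95.8 CPM, where 1 count is worth 4.10 and 7.98 CPM. In RWPE-1, NDUFA6 was high in Bone6 at 23.4 CPM, NDUFV1 was low in Spine2 at 93.8 CPM, and NDUFB1 was high in C-Raf parental 1 at 25.6 CPM.

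The metastasis-derived effect differed between RWPE-1 and BPH-1 by the interaction test of edgeR for all 13 mitochondrial members tested and for 26 of 59 nuclear members, which at 44.1% is near the 44.5% of all genes tested.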

How the results depend on the processing

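Between BPH-1 C-Raf parental cells and the vector control, DESeq2 called 5 mitochondrial members instead of 10, and 6786 of all genes instead of 7907. A minimum difference of 0.5 left 0 mitochondrial and 1 nuclear member of 38, and 2182 of all genes. In the BPH-1 metastasis-derived lines, the 17 nuclear calls became 10 with library size alone and 2 with all 6 libraries, and COX4I1 (-0.01) became 0.0042 with RLE size factors and 0.0043 with DESeq2. Leaving out 1 library there gave 1 to 13 mitochondrial and 7 to 34 nuclear calls, and differences of -0.61 to 0.020 for NDUFA4 and -0.26 to 0.24 for COX4I1. In the RWPE-1 metastasis-derived lines MT-CO1 (0.21) became -0.10 with a table term, -0.21 within the second table and -0.039 to 0.52 with 1 library left out. Against the RWPE-1 vector control, the nuclear calls changed with DESeq2 and with 1 library left out, and MT-CO1 (-0.50) became 0.17 against C-Raf parental 1 alone. Between the cell lines, leaving out 1 library gave 4 to 9 mitochondrial calls instead of 7. For the interaction, all 6 libraries gave 10 nuclear calls instead of 26, and COX4I1 (0.17) ran from -0.11 to 0.43 with 1 library left out. As a share of all counts, the mitochondrial share was 1.67% in the RWPE-1 vector control and 5.15% in the median BPH-1 metastasis-derived library, instead of 1.71% and 17.1%, with the 3 shallow libraries then below every other library, and with pseudogene copies added it was 1.73% in the RWPE-1 vector control. The cause was not tested. Of the counts of members called under an alternative, 172 stayed within 1.5 times and 18 did not. Where calls over all genes under the same alternative are not given, a change in members cannot be told from a general one. The titles number the BPH-1 replicates, but deviations of same-numbered libraries correlated at only 0.045, -0.048 and -0.038, so the numbers do not pair them. With the replicate block, 12 mitochondrial and 30 nuclear members were called, and 7678 of all genes. At 1 count, the shallow libraries reach 4.10 to 20.1 CPM, which limits single nuclear members there.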
